A study of Homo sapiens with 2 samples.

Results

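The genes described here were 10 T-cell surface antigen genes (CD2, CD4, CD5, CD6, CD7, CD27, CD28, CD38, CD44 and PTPRC), taken by name from GENCODE release 44 out of 20033 protein-coding genes. The cells were J.gamma1, a human line of T-cell acute lymphoblastic leukemia derived from Jurkat that lacks phospholipase C gamma 1, profiled in 2 biological replicates with a NUDT21 antibody by CUT&Tag, in which an antibody guides a transposase that cuts the DNA around the bound protein. Both formed 1 group of a single line with no treatment named, with no sample of another antibody or cell type analysed here, and no test between groups was possible. Each replicate had its own list of peaks, with 97162 peaks in replicate 1 and 68532 in replicate 2. For each gene, the peaks near its transcript starts and over its body were read from both lists. The genes were chosen by name and by no rule on measured values, but with earlier results of these data known.

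T-cell surface antigens are the proteins by which T cells and T-cell leukemias are recognised in flow cytometry. CD4 is a coreceptor that binds major histocompatibility complex class II molecules, CD28 and CD27 give costimulatory signals, and CD2 is an adhesion receptor for CD58. CD5 and CD6 are related scavenger-receptor family proteins that modulate antigen receptor signals, and CD7 is an early T-lineage marker that many T-cell leukemias keep. CD38 is a surface enzyme that consumes NAD, CD44 is a hyaluronan receptor, and PTPRC encodes CD45, the tyrosine phosphatase that activates the kinase LCK. NUDT21 is a subunit of cleavage factor I, which binds UGUA in nascent RNA and helps to choose the site of polyadenylation at the 3′ end.

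The 10 genes divided evenly by whether a peak lay at a start in both replicates. Peaks were assigned to the promoter of a gene if their closer edge was no more than 3000 bp from any of its annotated transcript starts. CD4, CD5, CD6, CD7 and CD27 passed in both replicates, which is 5 of 10 genes, where 57.0% of all protein-coding genes did. CD38 had a promoter peak in replicate 1 only, and CD28 and CD44 had one in replicate 2 only. CD2 and PTPRC had none in either replicate, which is 2 of 10 genes, where 29.3% of protein-coding genes had none. Counted by replicate, 6 of 10 had a promoter peak in replicate 1 (69.8% of protein-coding genes) and 7 of 10 in replicate 2 (57.9%). None of these counts stood far from the share among protein-coding genes.

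The sequence before the start is shown for 3 genes: CD28, with a promoter peak in replicate 2 only, and CD2 and PTPRC, with none in either. Each is the 150 bases just upstream of the gene record on hg38, read 5′ to 3′ on the plus strand, with every CpG dinucleotide in capitals. The positions are chr2:203706325-203706474 for CD28, chr1:116754280-116754429 for CD2 and chr1:198638307-198638456 for PTPRC.
CD28: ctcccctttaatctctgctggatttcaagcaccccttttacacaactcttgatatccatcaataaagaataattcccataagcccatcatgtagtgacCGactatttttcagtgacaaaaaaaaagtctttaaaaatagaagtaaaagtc
CD2: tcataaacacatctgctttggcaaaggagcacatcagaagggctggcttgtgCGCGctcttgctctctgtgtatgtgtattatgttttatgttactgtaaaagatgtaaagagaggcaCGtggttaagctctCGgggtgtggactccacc
PTPRC: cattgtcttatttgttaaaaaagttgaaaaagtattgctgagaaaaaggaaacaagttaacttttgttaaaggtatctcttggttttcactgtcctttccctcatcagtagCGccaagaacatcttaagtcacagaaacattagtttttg
The CD28 stretch was 34.7% G and C and lay inside the replicate 2 peak. The CD2 stretch held 4 CpG dinucleotides and was 46.7% G and C, whereas that of PTPRC held 1 and was 32.7%, and no peak of either replicate touched them.

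CD7 carried the strongest promoter peak of the 10 genes. It lies on the minus strand at chr17:82314868-82317608 and is only 2741 bp long. Strength is given as fold enrichment, the ratio of the fragment pileup at the highest point of a peak (its summit) to the background under it, as written by the peak caller, and as the rank of that fold within its own list, where rank 1 is the highest. In replicate 1, a single peak of 7400 bp covered the whole gene, with its summit 183 bp upstream of the start, a fold of 10.5 and rank 2083 of 97162. In replicate 2, a peak of 4882 bp had its summit 173 bp downstream of the start, in a coding exon, with a fold of 11.7 and rank 625 of 68532. The share of the list with a lower fold, called the fold percentile, was 97.9% and 99.1%. A further replicate 2 peak, with its summit 2761 bp upstream of CD7 and a fold of 6.47, lay within the span of the broad replicate 1 peak.

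CD4 (chr12:6786858-6820799, plus strand) had the next highest promoter peak in both replicates, which lay away from the 5′ end of its gene record. The peak with the highest fold had its summit 2875 bp into the gene in replicate 1 and 2631 bp into it in replicate 2. The nearest annotated starts of CD4 transcripts, which lie inside the gene record, were 165 bp and 25 bp away. Its fold was 10.1 in replicate 1 and 11.1 in replicate 2, with ranks of 2311 and 802 and fold percentiles of 97.6% and 98.8%. At the 5′ side of the gene, a weaker peak had its summit 2881 bp upstream in replicate 1 (fold 4.51) and 2647 bp upstream in replicate 2 (fold 4.79). At CD4, replicate 1 held 7 promoter peaks and replicate 2 held 5. When the summit itself had to lie within 3000 bp of a start, the numbers were 5 and 4. When only protein-coding transcript starts counted, they were 2 and 2. One of the 7, a replicate 1 peak of 10887 bp, qualified by its near edge, while its summit lay 565 bp beyond the 3′ end of CD4 and the peak also reached the starts of GPR162 and P3H3.

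CD6 and CD5 are neighbours on chromosome 11, with 82 kb between their gene records, and showed unlike peak positions. CD6 (chr11:60971680-61020377, plus strand) had a peak at its 5′ end in both replicates, with summits 81 bp and 169 bp into the 5′ UTR and folds of 5.03 and 4.49. Its strongest promoter peak lay deeper, at 32887 bp in replicate 1 and 33005 bp in replicate 2, which is 156 bp and 274 bp past the start of an annotated transcript that begins inside the gene. There the fold was 7.28 in replicate 1 (rank 7165, percentile 92.6%) and 6.36 in replicate 2 (rank 8469, percentile 87.6%). In both replicates the internal start thus had a higher fold than the 5′ end of CD6, where the percentiles were 74.0% and 57.3%. The internal summit lay in an exon of a noncoding transcript in replicate 1 and in an intron in replicate 2. When only protein-coding transcript starts counted, CD6 kept 1 of its 4 replicate 2 promoter peaks and 4 of its 8 in replicate 1. Whether the internal start serves as a promoter of CD6 was not tested. At CD5 (chr11:61102489-61127852, plus strand), the strongest promoter peak covered the start in both replicates, with its summit 975 bp downstream in replicate 1 and 314 bp upstream in replicate 2. Its fold was 5.996 in replicate 1 and 4.60 in replicate 2, at ranks of 13982 and 27272. The CD5 percentiles of 85.6% and 60.2% lay farthest apart among these 5 genes.

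CD27 (chr12:6444955-6451718, plus strand), which lies 335 kb from CD4, had a peak over its start in both replicates. The summit lay 236 bp into the gene in replicate 1, in a coding exon, and 92 bp into it in replicate 2, in the 5′ UTR. The fold was 5.08 at rank 24581 in replicate 1 and 6.18 at rank 9584 in replicate 2, with percentiles of 74.6% and 86.0%. These peaks were also promoter peaks of CD27-AS1, a gene on the opposite strand, and CUT&Tag signal has no strand that could separate them. A second peak, upstream of CD27, had its summit at 1574 bp and 1575 bp before the start in the replicates, 1 bp apart.

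CD28, CD38 and CD44 each had 1 promoter peak in 1 replicate, and no peak of the other replicate touched it. CD28 (chr2:203706475-203738912) had a replicate 2 peak of 420 bp with its summit 85 bp downstream of the start, a fold of 4.87 and rank 22667. In replicate 1 the nearest peak lay 25532 bp from the CD28 gene record. CD44 (chr11:35138882-35232402) had a replicate 2 peak with its summit 305 bp downstream, in the 5′ UTR, a fold of 3.17 and rank 58028, and the divergent noncoding gene CD44-DT starts within 3000 bp of it. CD38 (chr4:15778275-15853232) had a replicate 1 peak with its summit 197 bp downstream, in a coding exon. Its fold of 1.96 took rank 96787 of 97162, so that 0.369% of the list had a lower fold. The nearest replicate 1 peak to CD44 lay 55975 bp away, and the nearest replicate 2 peak to CD38 lay 96251 bp away. The −log10 q of the peak caller was 2.32 at the CD38 peak and 3.65 at the CD44 peak. With a −log10 q of at least 5, which CD28 passed at 5.33, neither CD38 nor CD44 had a promoter peak, and the count of genes with none in either replicate was 4 of 10 in place of 2.

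CD2 and PTPRC had no promoter peak, and PTPRC had no peak at all. CD2 (chr1:116754430-116769229) held a single replicate 1 peak of 329 bp in an intron, 10885 bp from the start, with a fold of 3.34 and a percentile of 29.8%. In replicate 2 the nearest peak lay 132906 bp from CD2. PTPRC (chr1:198638457-198757476) is the longest of the 10 genes, at 119020 bp, and the nearest peaks lay 69720 bp away in replicate 1 and 273884 bp away in replicate 2. Among 2990 protein-coding genes at least as long as PTPRC, 31.9% likewise had no promoter or body peak in either replicate (95% Wilson interval 30.2% to 33.6%). Among the 273 genes with a promoter GC content no higher than that of PTPRC, 81.0% had none (75.9% to 85.2%).

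**Figure D1:**
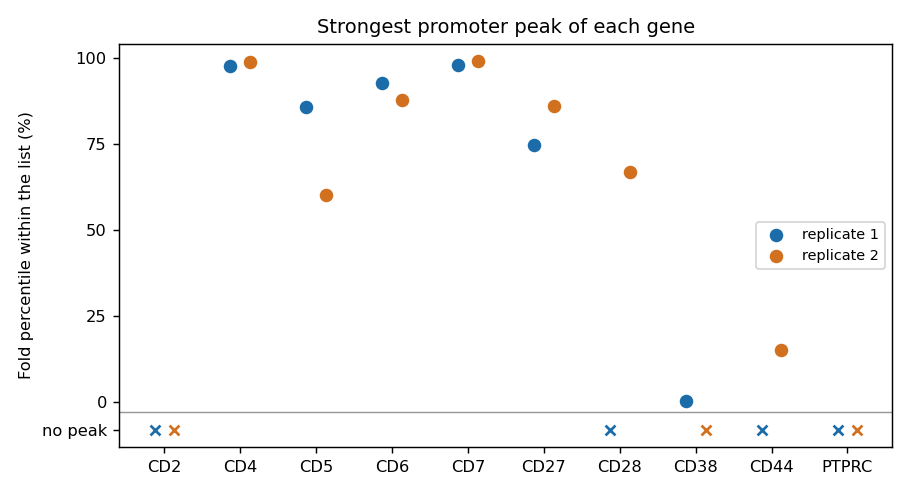
Fold percentile of the strongest promoter peak of each gene within its own peak list (vertical axis, %), with 1 point for each replicate and a cross where the gene had no promoter peak. CD7 and CD4 sit near the top in both replicates at 97.6% or more, CD38 sits at 0.369%, and CD2 and PTPRC have crosses only.

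Among genes with a promoter peak, the median percentile of the strongest one was 89.1% in replicate 1 (6 of the antigen genes) and 86.0% in replicate 2 (7 of them). For all protein-coding genes with such a peak it was 82.2% and 77.9%. The mean of the antigen gene medians over the replicates was 87.5% ± 2.23 (SD, n = 2). CD38 entered only the replicate 1 median, and CD28 and CD44 only that of replicate 2. The SD thus also reflects a change of genes. The range within the group was wide, from 0.369% at CD38 to 99.1% at CD7.

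The deposited fold and −log10 p together give the number of fragments at a summit and the background under it, called the control level. Such a solution needed the replicate 1 pileup to be scaled by 0.921, as MACS3 does when it sets a library against a control of another depth. Several replicate 1 control levels were also whole numbers, such as 8.0 at CD7 and 16.0 at CD38. The methods describe no control, and which library gave the background was not tested. At CD7 the summit held 101 fragments in replicate 1 (95% Poisson interval 82.3 to 123) over a control level of 8.0, and 59 in replicate 2 (44.9 to 76.1) over 4.15. CD4 had 52 and 38 fragments over the low control levels of 3.83 and 2.52. CD5 had more fragments than CD4, 72 and 42, but over control levels of 10.2 and 8.35, which gave it the lower fold. CD6 had 47 and 26 fragments at its internal start, and CD27 had 43 and 23. The CD28 peak rested on 12 fragments (6.20 to 21.0) over 1.67, where the lowest number at any replicate 2 peak was 8 and the median was 19. CD44 had 17 fragments (9.90 to 27.2) over 4.69. CD38 had 35 (24.4 to 48.7), above the replicate 1 median of 29, but over a control level of 16.0, where the median was 6.0. These intervals cover counting error only, and a region without a peak in a list may still hold fragments, so that absence of NUDT21 at CD2 or PTPRC was not shown.

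**Figure D2:**
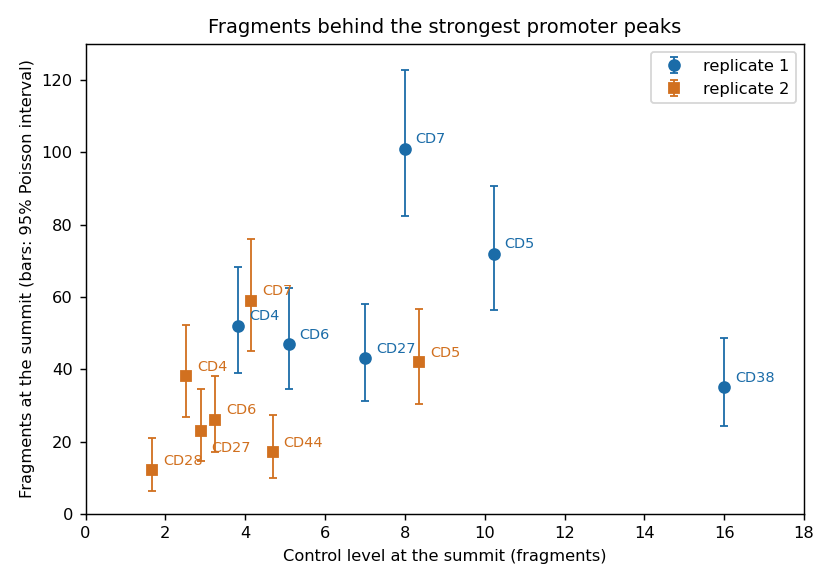
Fragments at the summit of each strongest promoter peak (vertical axis, with 95% Poisson intervals as bars) against the control level under it in fragments (horizontal axis), for replicate 1 (circles) and replicate 2 (squares). CD7 in replicate 1 stands highest at 101 fragments, CD28 in replicate 2 lowest at 12, and CD38 lies far to the right at a control level of 16.0.

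Peaks within the gene bodies and outside promoters lay in CD4, CD5, CD6 and CD27, apart from 1 in CD2. A body peak overlapped the gene record and was no promoter peak of that gene. CD4, CD5, CD6 and CD27 had body peaks in both replicates, which is 4 of 10 genes, where 28.6% of protein-coding genes did. Every body peak of CD27 was also a promoter peak of TAPBPL, the next gene. Among them was the CD27 peak with the highest fold, 8.52 in replicate 2. With the intron peak of CD2, the count in replicate 1 was 5 of 10 (38.3% of protein-coding genes), and it was 4 of 10 in replicate 2 (31.3%). CD6 had 6 body peaks in replicate 1 and 3 in replicate 2, CD5 had 6 and 5, CD4 had 4 and 3, and CD27 had 1 and 2. In CD6, an intron peak had its summit 9895 bp into the gene in both replicates, at the same base, with a fold of 4.04 in replicate 1 and 6.61 in replicate 2. Per 10 kb of gene, CD27 had the most peaks over its record, 4.44 in each replicate, followed by CD7 with 3.65 in each. The medians over protein-coding genes were 0.524 in replicate 1 and 0.239 in replicate 2. These rates also count promoter peaks, and CD7 had no body peak. In each replicate they rest on 3 peaks in the 6764 bp of CD27, those shared with TAPBPL included, and 1 in the 2741 bp of CD7. The median length of protein-coding genes was 27471 bp.

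**Figure D3:**
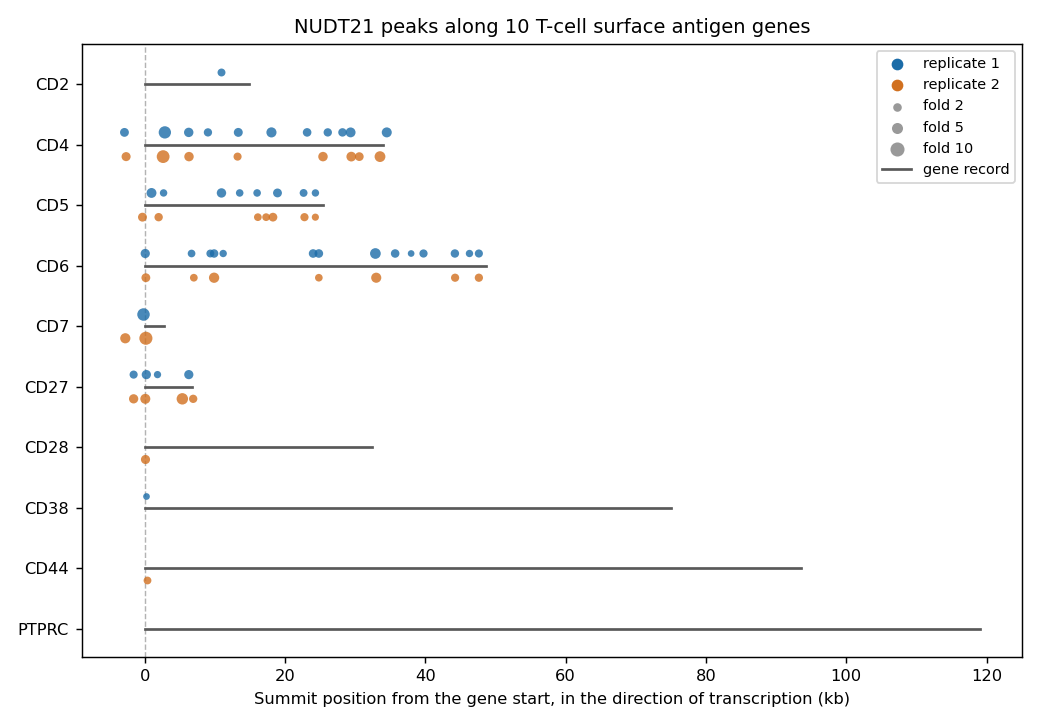
Summit of every peak assigned to each gene by its distance from the gene start in the direction of transcription (horizontal axis, kb), with replicate 1 above and replicate 2 below the line that marks the gene record, and point area growing with the fold. Peaks run along CD4, CD5 and CD6 and cluster at CD7 and CD27, while CD28, CD38 and CD44 have 1 point each near the start and PTPRC has none.

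The peaks of these genes numbered 40 in replicate 1 (22 promoter and 18 body peaks) and 30 in replicate 2 (17 and 13). All but 2 in each replicate belonged to CD4, CD5, CD6, CD7 and CD27. Of the 40 replicate 1 peaks, 26 (65.0%) overlapped one of replicate 2, against 56.4% of all replicate 1 peaks on the main chromosomes. Of the 30 replicate 2 peaks, 28 (93.3%) overlapped one of replicate 1, against 85.7%. The pair of replicate 2 peaks that did not were those of CD28 and CD44. CD6 had the most peaks without a partner, with 8 of 14 replicate 1 peaks overlapping one of replicate 2.

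Because NUDT21 acts in polyadenylation, the 3′ ends were examined separately. For a gene-end peak, the summit had to lie no more than 1000 bp from where the gene record ends, and the peak could be no promoter peak of that gene. CD4 and CD27 had one, which is 2 of 10 genes, where 16.3% of protein-coding genes had one in either replicate. At CD27 the summit lay 473 bp inside the 3′ end in replicate 1 (fold 5.01, 75 fragments) and 151 bp beyond it in replicate 2 (fold 3.81, 41 fragments). Both were also promoter peaks of TAPBPL, the next gene. At CD4 the summit lay in the 3′ UTR in replicate 2, 399 bp from the gene end, with a fold of 7.45, and the peak was shared with the start of GPR162. A signal at the end of CD27 or CD4 therefore cannot be told apart from one at the start of the next gene. CD5 had a 3′ UTR peak in both replicates, 1025 bp and 1034 bp from its end, with folds of 2.70 and 2.43, just outside the 1000 bp limit. CD6 had a peak 1063 bp and 1062 bp from its end, in a coding exon, which was counted as a promoter peak because a short CD6 transcript starts nearby.

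The base composition of the promoters was compared next. Promoter GC content was taken over 250 bp before to 50 bp after the start of the gene record. It was 33.0% for PTPRC, 41.3% for CD28, 42.3% for CD2, 42.7% for CD4, 51.0% for CD27, 53.0% for CD38, 57.7% for CD6, 62.3% for CD44, 65.7% for CD5 and 68.3% for CD7. CD5, CD7 and CD44, 3 of 10 genes, lay above the median of protein-coding genes, 60.3%. The ratio of CpG found to CpG expected from the base content was between 0.123 (PTPRC) and 0.484 (CD44), and all 10 lay below the median of 0.696. When protein-coding genes were divided into 10 equal groups by promoter GC content, the share whose promoters had a peak in each replicate was 17.4% in the lowest group, which holds PTPRC and CD28, and 33.1% in the next, which holds CD2 and CD4. It was 72.1% in the group of CD7, 69.1% in that of CD5 and 69.8% in that of CD44. CD4 was thus among the fewer genes of its group with promoter peaks in both replicates, and CD44 among the fewer genes of its group without. CD2 and CD4 differed by less than 1 percentage point of promoter GC content, but the CD4 peak with the highest fold lay outside its promoter window, 2631 bp or more into the gene.

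**Figure D4:**
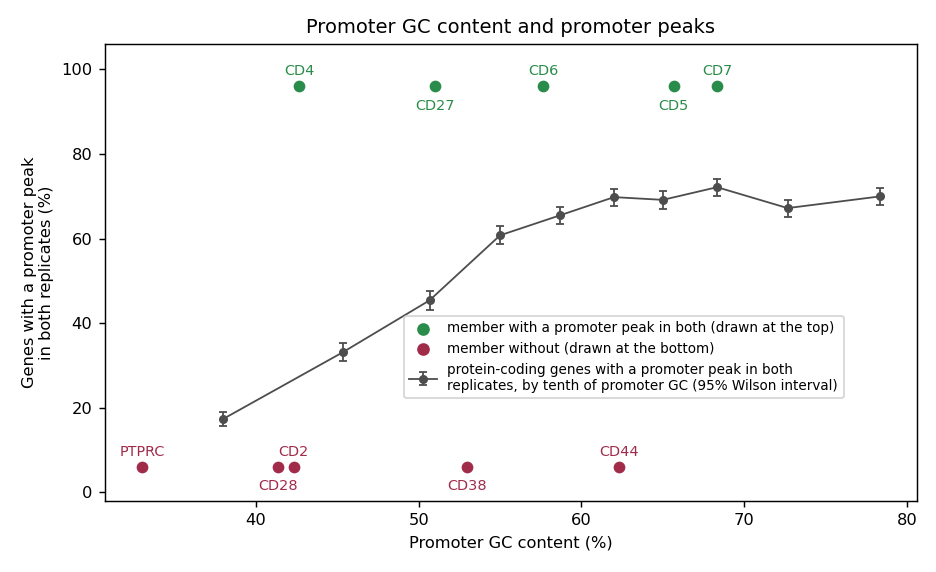
Share of protein-coding genes whose promoters had peaks in each replicate (vertical axis, %, with 95% Wilson intervals) in 10 equal groups by promoter GC content (horizontal axis, %), with the antigen genes placed at their own GC content, at the top if theirs did and at the bottom if not. The share climbs from 17.4% to about 70% of genes, and CD4 at the top stands above CD2 at the bottom at nearly the same GC content.

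Short motifs were searched on both strands of the same 300 bp promoter windows. TGTA, the DNA form of the RNA element that NUDT21 binds, was in 7 of 10 windows (absent from CD5, CD27 and CD44) and in 56.2% of all protein-coding promoters. CG and GGAA were in all 10, and in 97.8% and 94.9% of promoters. TGTGGT was found at CD6 only (12.4% of promoters), GATAA at CD4 only (20.5%) and CACGTG, which itself contains CG, at CD2 only (8.36%). Among genes with promoter peaks in both replicates, TGTA was present at CD4, CD6 and CD7 and missing at CD5 and CD27. It was present at CD2 and PTPRC, without promoter peaks. Of the genes with a promoter peak in 1 replicate, CD28 and CD38 held it and CD44 did not. These windows lie mostly upstream of the start and were read on both strands, so they do not stand for the RNA. Whether TGTA has a part in these peaks was not tested. The windows lie at the start of the gene record, so the sequence under the strongest peaks of CD4 and CD6 was not searched.

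A wider measure separated the 10 genes without overlap. After the values above were seen, the number of peaks per Mb was counted within 500 kb either side of each gene record, with the record and 3 kb around it left out. In replicate 1 it was 147 for CD6, 179 for CD5, 207 for CD27, 224 for CD4 and 264 for CD7. For the other 5 genes it was 18.1 at CD2, 13.1 at CD28, 8.05 at PTPRC, 4.02 at CD44 and 3.02 at CD38. In replicate 2 the first 5 genes had between 105 (CD6) and 296 (CD7), and the other 5 between 1.01 (CD38 and CD44) and 15.1 (CD2). The medians of protein-coding genes, 44.3 and 26.2, lay between the groups. A density above the median in both replicates was found for 48.4% of protein-coding genes, and for 5 of these 10. The GC content of the same surroundings was 46.9% to 55.1% for the first 5 genes and 35.7% to 43.3% for the others, on either side of the median of 44.03%. That of the gene bodies did not overlap either, at 48.6% to 65.8% for the first 5 genes and 34.2% to 47.1% for the others. When protein-coding genes were divided into 10 equal groups by this density in replicate 1, of those in the group of CD4 and CD27, 94.2% had promoter peaks in both lists. In the group of CD38 and CD44 the share was 21.4%. The windows of CD5 and CD6 overlap, as do those of CD4 and CD27, so that the 5 genes stand for 3 regions, and no test was made of a measure chosen in this way. What part peak density, GC content or transcription has in these peaks was not tested.

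**Figure D5:**
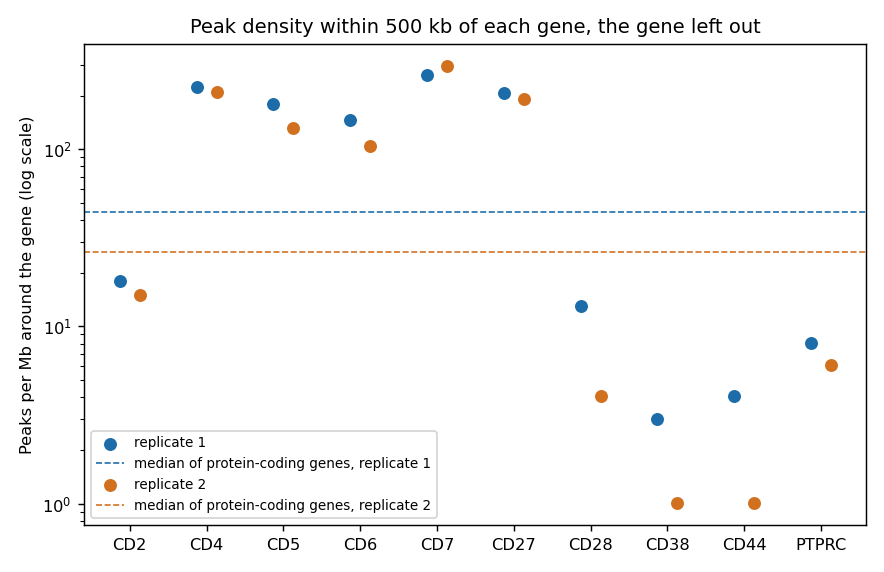
Peaks per Mb within 500 kb either side of each gene, the gene itself left out (vertical axis, log scale), for both replicates, with dashed lines at the medians of protein-coding genes. CD4, CD5, CD6, CD7 and CD27 lie above both lines at 105 or more, and CD2, CD28, CD38, CD44 and PTPRC lie below them at 18.1 or less.

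Other surface genes were counted in the same way. Of all protein-coding genes, 57.0% had promoter peaks in both lists and 29.3% in neither. Of 30 other T-cell surface genes, 14 had promoter peaks in both lists and 11 in neither, among them CD3E, ICOS and CD53. The highest mean fold percentiles among them were those of the integrin genes ITGAL and ITGB2 and of the tetraspanin gene CD81. Of 26 surface genes of other lineages, such as B cells, myeloid cells and platelets, 12 had promoter peaks in both lists and 10 in neither. The B-cell receptor gene CD79A and the platelet genes ITGA2B and GP1BA ranked highest there. Since genes of B cells and platelets had promoter peaks too, the T-cell label of the line could not be checked from the peaks. Of 15 ligands and intracellular partners of the 10 antigens, 11 had promoter peaks in both lists. SECTM1, a ligand of CD7, CD2BP2, which binds the tail of CD2, and PTPRCAP, which associates with CD45, ranked highest. ALCAM, the ligand of CD6, and CD86, a ligand of CD28, had none in either replicate.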

How the data were processed

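NUDT21 CUT&Tag was measured in 2 replicates of J.gamma1 cells. The authors trimmed reads with fastp, aligned them to hg38 with Bowtie2 (version 2.2.5), removed duplicates with Picard and called peaks in each replicate with MACS3 (version 3.0.1). A control library is not described. The deposited columns hold a fold enrichment at the summit (a ratio), −log10 p and −log10 q values, and a score, which was not used. Read totals were not used here, so the absolute depth is unknown, and folds were compared as ranks within a list.

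Fragments and control levels were solved from the fold and −log10 p for 100% of peaks, within a relative error of 0.0001, with the pileup of replicate 1 scaled by 0.921. The solution and the assignment of peaks were tested on simulated data. Peaks were assigned with GENCODE release 44 on hg38 in Python (version 3.11.15). The chosen genes and lists were set with earlier results of these data known, and all 10 genes are named. From other lists, genes without promoter peaks and the 3 with the highest mean fold percentile could be named. Sequences came from hg38. A window upstream of the start was shown in place of one around a summit, so that no transcribed base is printed. For CD2 and CD28 the bases compared equal those of the RefSeq promoter table (GRCh38.p14). With 1 group, no p-value was computed. Alternatives were other promoter and gene-end distances, other sets of starts, summits in place of edges, stricter lists, other ranks, other GC windows, and each replicate left out.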

Additional observations from a re-analysis of the deposited data

How the results depend on the processing

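Of 26 alternative values, 22 stayed within the limits set for a change. Among the 22 were the counts from single lists, which ask for a peak in 1 list and not in both. The count of genes with promoter peaks in both replicates was 5 under each alternative other than keeping the top 10000 peaks by −log10 p, where CD27 was lost and it was 4, and the single lists, where it was 6 to 7. Genes without a promoter peak in either replicate numbered 4 in place of 2 with a −log10 q of at least 5 (CD38 and CD44 joined CD2 and PTPRC), and 6 with the top 10000 peaks, where CD27 and CD28 joined them too. With those 10000 peaks, the count with body peaks in both replicates fell from 4 to 1, since fewer peaks were used. From single replicates it was 4 to 5. The median fold percentile of 87.5% became 80.3% when peaks were ranked by fragments and 81.6% when ranked among promoter peaks alone. Without either replicate it was 86.0% to 89.1%. Gene-end peaks were found at 4 genes in place of 2 with a limit of 3000 bp, which adds CD5, and CD6 through peaks beyond its end, at 2199 bp in replicate 1 and 1492 bp in replicate 2. No paired analysis was possible because there was 1 group, with no second one to pair. Summits held a median of 29 fragments in replicate 1 against 19 in replicate 2, and what part depth has in peaks found in 1 replicate was not tested.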
